A study of Ursus arctos with 12 samples.

Results

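Integrins and the adhesion proteins of the costamere were followed in muscle of hibernating and active brown bears (Ursus arctos). The genes were chosen by symbol, with at least 30 reads summed over the libraries. Integrin alpha and beta chains were taken as ITGA or ITGB followed by digits only, or as ITGAV, ITGAM, ITGAL or ITGAX. The alpha chain ITGA2B, with 195 reads, is outside this rule and served only as a platelet marker. Added to the chains were 14 proteins that act on the cytoplasmic side of integrins. The rule gave 37 genes of the 17290 that reached the minimum, 23 integrin chains and 14 adhesion proteins. No gene with a fitting symbol fell below it. Biopsies of the vastus lateralis, a thigh muscle, came from 6 free-ranging bears of 2 to 3 years, each captured and anesthetized during winter hibernation (February) and again during the active summer period (June) of the same year. No bear received a treatment, and the 6 winter and 6 summer libraries of poly-A RNA are therefore paired by animal.

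An integrin is a receptor made of 1 alpha and 1 beta chain that binds matrix proteins outside the cell and, through talin, kindlin and other adaptors, the actin cytoskeleton inside. In skeletal muscle, integrins and the dystrophin complex sit at costameres, the rib-like attachments that tie the Z-discs of peripheral myofibrils to the fiber membrane and the basement membrane, and pass force sideways. Integrin alpha7 beta1 is the main laminin-binding integrin of the adult muscle fiber. Other chains are typical of fibroblasts, vessels or leukocytes, which are also present in a biopsy, and in bulk RNA fewer cells of a type and less RNA per cell cannot be told apart.

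Levels are given as CPM (counts per library total, scaled to a common size) with edgeR's TMM factors. CPM is not corrected for transcript length, so levels were compared between seasons and not between genes. Changes are log2 fold changes of winter over summer from edgeR's quasi-likelihood test with the bear as a term, with their standard error (SE) and a p-value adjusted over all genes by the Benjamini-Hochberg procedure. A gene was called at an adjusted p below 0.05. Between 20191068 and 27283155 reads per library were counted on genes in summer, and between 16742406 and 32140160 in winter. The 37 genes took 0.187 to 0.292% of the reads in summer (median 0.231%) and 0.191 to 0.225% in winter (median 0.207%). For the 23 integrin chains the share was 0.0766 to 0.128% in summer and 0.0616 to 0.0786% in winter, so that the seasons overlapped only narrowly. With TMM factors, the 37 genes summed to 2005 to 2556 CPM in summer (median 2236) and 1902 to 2292 CPM in winter (median 2202). Within these sums TNS1 had a median of 264 CPM in summer and 539 CPM in winter, while 20 of the 37 genes were called lower. Muscle fiber markers held a median of 143600 CPM in summer and 143700 CPM in winter. The winter library of bear 1509 differed from the other winter libraries in several of the genes below, and values without this bear are given where a result turned on it.

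Most of the called genes were lower in winter. Of the 37 genes, 20 were lower and 3 were higher, where 21.2% of all genes tested were called lower and 19.6% higher. The median log2 fold change was −0.54, against −0.01 over all genes. At the stricter limits that the study set for its DEGs (adjusted p under 0.01 with FC over 1.3 or under 0.77), 16 were lower and 3 higher (13.4% and 12.2% of all genes). In 15 of the 37 the winter value was below the summer value in 6 of 6 bears, and in 4 it was above (19% and 18.4% of all genes). The winter libraries all lay below the summer libraries for 8 genes and above them for 2 (8.21% and 9.12% of all genes), and the seasons overlapped for the other 27. The 23 integrin chains gave 14 lower and 0 higher in edgeR, with 1 higher at an unadjusted p below 0.05, 1 in DESeq2 and 0 in limma voom. Among the 14 adhesion proteins 6 were lower and 3 higher.

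**Figure D1:**
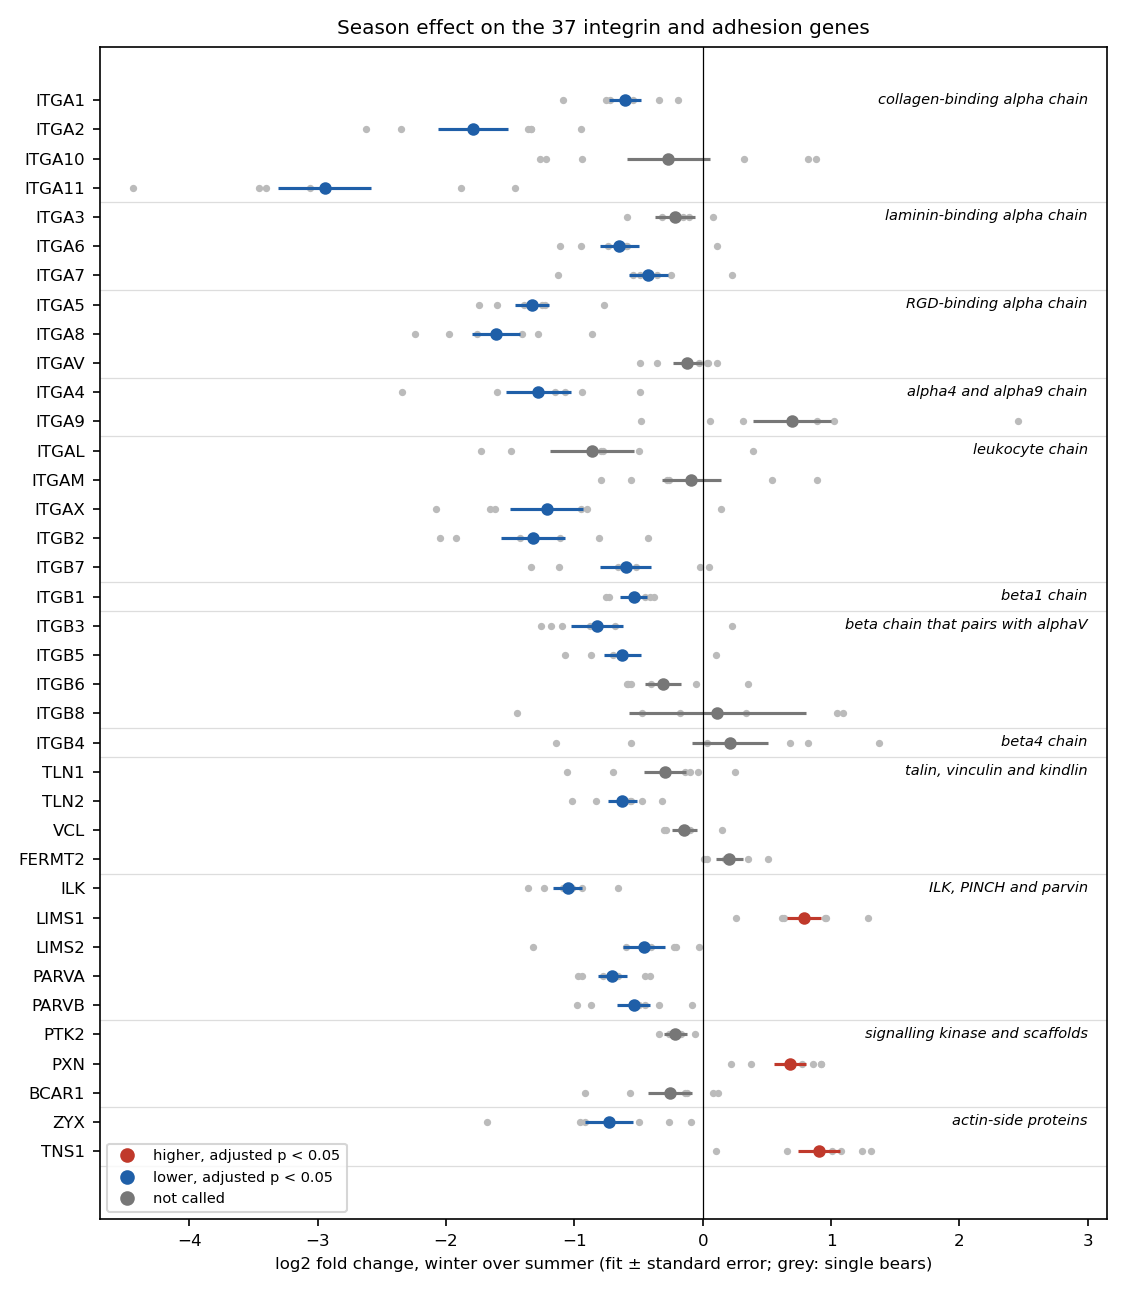
Log2 fold change of winter over summer (x axis) for each of the 37 genes (y axis), grouped by role. Large points are the fit with its standard error, colored by the call at an adjusted p below 0.05, and grey points are the 6 single bears. Calls to the left of 0 (20 genes) outnumber those to the right (3 genes, LIMS1, PXN and TNS1), and the lowest value is ITGA11 at −2.95.

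Of the 4 alpha chains that bind collagen, 3 were called lower, beside 21.2% of all genes tested. ITGA11, a receptor for fibrillar collagen found mainly on fibroblasts, ran from 7.01 to 24.8 CPM in summer (median 14.4) and from 0.588 to 4.93 CPM in winter (median 1.94). The seasons did not overlap, and the winter libraries of bears 1509 and 1511 were the highest of their season at 3.75 and 4.93 CPM. Its log2 fold change was −2.95 (SE 0.36, adjusted p = 0.00017), with single bears from −4.44 to −1.46. ITGA2, which also serves platelets as a collagen receptor, ran from 1.19 to 5.59 CPM in summer (median 2.51) and from 0.42 to 1.16 CPM in winter (median 0.816). These ranges were again apart, although the gene rested on only 10 to 140 reads per library, and the log2 fold change was −1.79 (SE 0.28, adjusted p = 0.000616). ITGA1, a receptor that prefers basement membrane collagen, was at 35.6 to 58.7 CPM in summer (median 50.2) and 27.6 to 38.2 CPM in winter (median 31.3). It fell by 0.60 on the log2 scale (SE 0.13, adjusted p = 0.00345), lower in 6 of 6 bears with a small overlap of the seasons.

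ITGA10, the collagen receptor known from cartilage, was not called. It was at 1.97 to 8.41 CPM in summer (median 7.70) and at 3.07 to 9.81 CPM in winter (median 3.62), with 3 bears higher and 3 lower. The log2 fold change was −0.27 (SE 0.32, adjusted p = 0.535). In summer the libraries of bears 1305 and 1509 were near 2 CPM and the other libraries at 7.54 to 8.41 CPM.

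Of the 3 alpha chains that bind laminin, 2 were called lower (21.2% of all genes tested). ITGA7, the muscle fiber chain, was at 94.7 to 181 CPM in summer (median 138) and 66.0 to 124 CPM in winter (median 111). The lowest winter value belonged to bear 1509, the seasons overlapped, and bear 1512 was higher in winter by 0.23 on the log2 scale while the other 5 were lower. The log2 fold change was −0.42 (SE 0.15, adjusted p = 0.047), just inside the threshold. This call was lost in edgeR without the bear as a term (adjusted p = 0.0513, with 0.0418 in DESeq2 without it) and without bear 1305 (0.0826), 1316 (0.0992), 1317 (0.102), 1509 (0.112) or 1511 (0.0659), within a range of 0.0181 to 0.112, and without bear 1509 the log2 fold change shrank to −0.27. ITGA6, a laminin-binding chain of satellite cells and endothelium, was at 61.6 to 145 CPM in summer (median 112) and 49.5 to 95.7 CPM in winter (median 68.4). It was lower in 5 of 6 bears, with bear 1305 slightly higher, and the log2 fold change was −0.65 (SE 0.15, adjusted p = 0.00562). ITGA3, at 2.48 to 4.58 CPM over all libraries, had a log2 fold change of −0.21 (SE 0.16, adjusted p = 0.294) and was not called.

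Chains that recognize the RGD motif, the short tripeptide of fibronectin and related proteins, were divided. ITGA5, the fibronectin receptor chain, was at 29.0 to 62.1 CPM in summer (median 41.4) and 13.5 to 18.5 CPM in winter (median 17.0). Its winter values were close together and all lay below the lowest summer value. The log2 fold change was −1.33 (SE 0.13, adjusted p = 5.91e-05). ITGA8, a receptor chain of smooth muscle and other mesenchymal cells, was at 6.73 to 16.8 CPM in summer (median 11.5) and 2.48 to 5.24 CPM in winter (median 3.39), also without overlap, with a log2 fold change of −1.61 (SE 0.19, adjusted p = 0.000128). By contrast ITGAV was at 68.6 to 120 CPM in summer (median 80.4) and 64.6 to 100.2 CPM in winter (median 78.3), with 3 bears higher and 3 lower. Its log2 fold change was −0.12 (SE 0.11, adjusted p = 0.415).

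The beta1 chain, ITGB1, is the partner of most of these alpha chains. It was at 253 to 383 CPM in summer (median 316) and 194 to 235 CPM in winter (median 223). The seasons did not overlap and the bears were close to each other, from −0.75 to −0.38 on the log2 scale. The log2 fold change was −0.54 (SE 0.11, adjusted p = 0.0024), equal to 31.0% less than in summer.

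**Figure D2:**
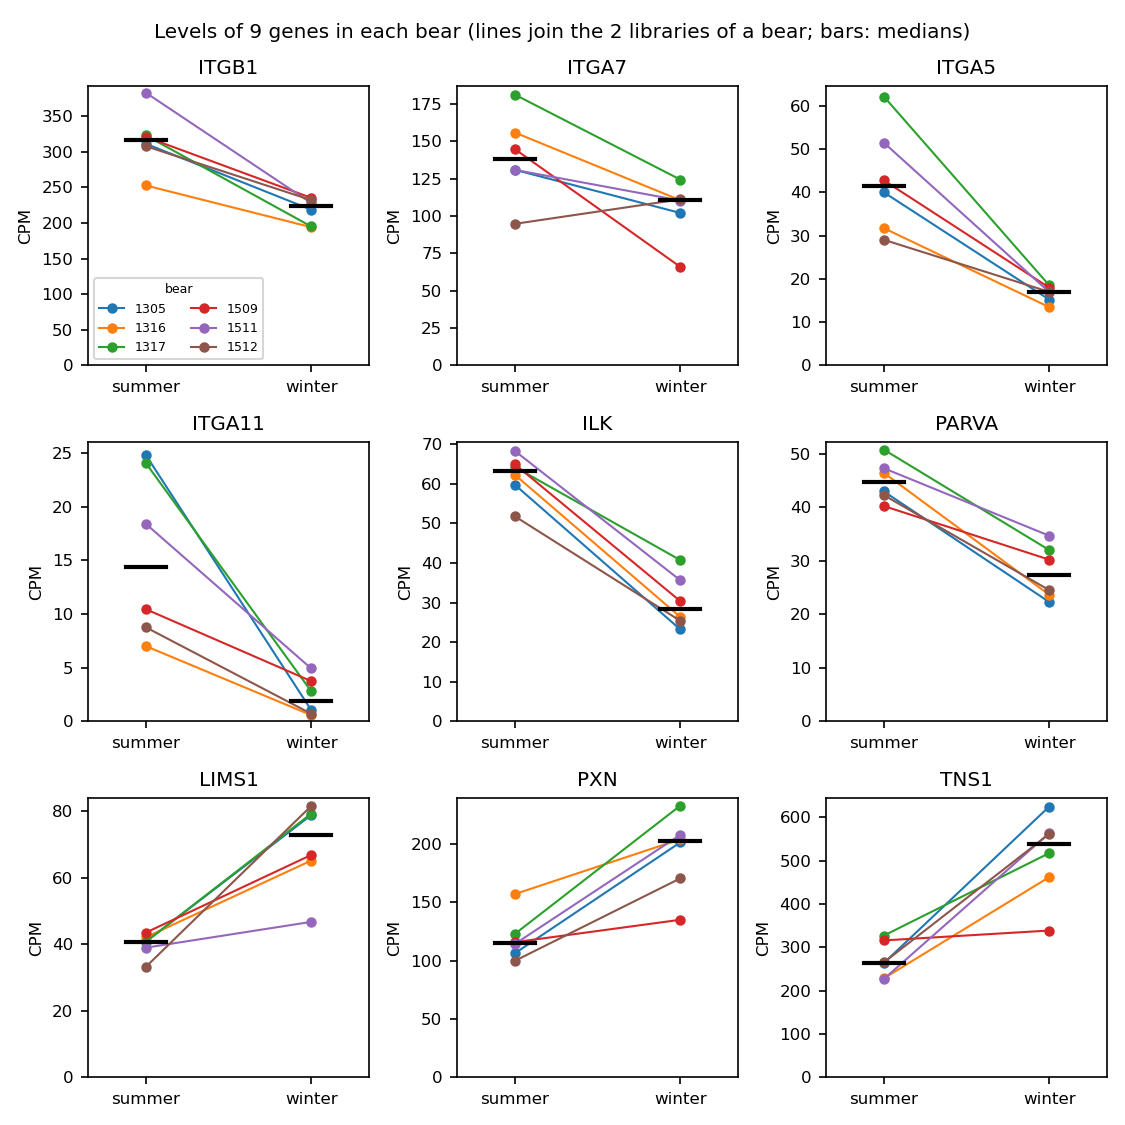
CPM (y axis, from 0) in summer and winter for 9 of the genes, 1 panel each, with a line joining the 2 libraries of each of the 6 bears and a bar at the median of each season. ITGB1, ITGA5, ITGA11, ILK and PARVA have all winter points below all summer points, LIMS1 and TNS1 have all winter points above, and ITGA7 and PXN overlap.

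Among the beta chains that pair with alphaV, ITGB3 and ITGB5 fell and ITGB6 and ITGB8 were not called. ITGB3, the beta chain of a vitronectin receptor of vessels, was at 6.20 to 12.5 CPM in summer (median 7.78) and 2.69 to 7.64 CPM in winter (median 5.52). It was lower in 5 of 6 bears, bear 1511 being the exception, with a log2 fold change of −0.82 (SE 0.20, adjusted p = 0.00761). ITGB5, another vitronectin receptor chain, was at 30.9 to 51.8 CPM in summer (median 40.4) and 18.6 to 44.6 CPM in winter (median 24.2). Bear 1511 was again the only one without a decrease, and the log2 fold change was −0.63 (SE 0.14, adjusted p = 0.00557).

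ITGB6, a chain best known from epithelia, where its heterodimer with alphaV activates latent TGF-β, was counted with 789 to 2439 reads per library. It was at 67.0 to 88.9 CPM in summer (median 81.1) and 44.4 to 86.1 CPM in winter (median 63.4). Winter was lower in 5 of 6 bears, and the highest winter value was that of bear 1509, the 1 bear in which it was higher. The log2 fold change was −0.31 (SE 0.14, adjusted p = 0.0987), but without bear 1509 it was −0.43 with an adjusted p of 0.0133, the lowest among alternatives that reached 0.229. ITGB8, a further chain that with alphaV activates TGF-β, had 0 to 7 reads per library and 30 in all, so that a seasonal difference was not detectable at this depth (log2 fold change 0.11, SE 0.69, adjusted p = 0.91). For ITGB4, the hemidesmosome chain that pairs with alpha6, levels were 2.74 to 11.9 CPM in summer and 1.93 to 8.04 CPM in winter, and the log2 fold change was 0.22 (SE 0.30, adjusted p = 0.587).

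The alpha4 and alpha9 chains are related and share ligands such as VCAM1. ITGA4, carried mainly by leukocytes, fell from 2.24 to 4.74 CPM in summer (median 3.05) to 0.602 to 2.43 CPM in winter (median 1.22), with 6 of 6 bears lower and a log2 fold change of −1.28 (SE 0.25, adjusted p = 0.0025). ITGA9 was the integrin chain with the highest log2 fold change, 0.70 (SE 0.31, adjusted p = 0.0916), but it was not called. Its summer libraries lay at 14.2 to 29.3 CPM (median 24.4) and its winter libraries at 20.2 to 78.3 CPM (median 40.6). Bears 1305, 1316 and 1317 were at 54.4, 78.3 and 55.1 CPM in winter and bears 1509, 1511 and 1512 at 26.8, 20.2 and 20.8 CPM, with changes from −0.48 in bear 1511 to 2.46 in bear 1316. It was called without the bear as a term (adjusted p = 0.0451), in DESeq2 with and without that term (0.0299 and 0.0179) and without bear 1511 (0.0353), and its adjusted p ran from 0.0179 to 0.193 over the alternatives.

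Of the 5 chains typical of leukocytes, 3 were called lower, where this held for 21.2% of all genes tested. ITGB2, the common beta chain of the leukocyte integrins, was at 3.26 to 5.05 CPM in summer (median 3.61) and 0.814 to 2.47 CPM in winter (median 1.43), without overlap (log2 fold change −1.33, SE 0.25, adjusted p = 0.00193). ITGAX, a chain of dendritic cells and macrophages, was at 2.12 to 4.82 CPM in summer and 0.716 to 2.35 CPM in winter, lower in 5 of 6 bears at −1.22 (SE 0.29, adjusted p = 0.00641). ITGB7, a chain of lymphocytes that home to the gut, was at 7.39 to 12.7 CPM in summer and 3.83 to 8.12 CPM in winter, with a log2 fold change of −0.60 (SE 0.20, adjusted p = 0.0336). The adjusted p of ITGB7 was 0.0734, 0.0989, 0.0826 and 0.0698 without bear 1316, 1317, 1509 or 1512, and at least 0.0199 in every alternative. ITGAL of lymphocytes, with 7 to 40 reads per library, was at −0.86 (SE 0.33, adjusted p = 0.0562). It was called without the bear as a term in edgeR (0.0417) and DESeq2 (0.0351), with library totals (0.0417), with filterByExpr (0.0496) and without bear 1305 (0.0198), and the alternatives together spanned 0.0198 to 0.157. ITGAM of macrophages and neutrophils was at 2.34 to 8.83 CPM in summer and 2.77 to 6.20 CPM in winter, and its log2 fold change was −0.09 (SE 0.23, adjusted p = 0.785).

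Markers of the other cells of the biopsy differed by cell type, beside 21.2% of all genes called lower and 19.6% higher. The summed level of 9 fibroblast markers was 1333 to 2253 CPM in summer and 428 to 1801 CPM in winter, with 8 of 9 called lower. For 9 endothelial markers it was 669 to 988 CPM and 455 to 525 CPM, with 6 of 9 lower and 1 higher. Smooth muscle and pericyte markers held 680 to 856 CPM in summer and 457 to 566 CPM in winter (5 of 9 lower), and 10 leukocyte markers 45.6 to 78.9 CPM and 26.6 to 58.3 CPM (4 of 10 lower). Each of these 4 sums was lower in winter in 6 of 6 bears, and their part in the lower integrin levels was not tested. Satellite cell markers gave 11.7 to 48.5 CPM in winter against 18.8 to 47.8 CPM in summer (3 of 5 lower). CHRNA1 held most of that sum, with a median of 16.7 CPM in winter and 23.4 CPM in summer. It was not called, nor was MYOD1. MYF5 (log2 fold change −2.05), PAX7 (−0.77) and CALCR (−2.27, 0 to 8 reads per library) were called lower. Adipocyte markers gave 216 to 459 CPM against 297 to 1376 CPM (1 of 5 lower), and nerve markers 10.1 to 137 CPM against 14.4 to 42.8 CPM (0 of 6 called in edgeR). The adipocyte sum was also lower in winter in 6 of 6 bears, the satellite cell sum in 5 and the nerve sum in 4. FABP4, the 1 adipocyte marker called, held most of the adipocyte sum, with a median of 418 CPM in summer and 238 CPM in winter. The other adipocyte markers were divided, with ADIPOQ lower in 3 of 6 bears, PLIN1 in 2, LEP in 2 and CIDEC in 4. Of the 6 platelet markers only 2 reached 30 reads, and these, of which 0 were called in edgeR, summed to 0.429 to 1.36 CPM in summer and 0.586 to 1.18 CPM in winter. Among 7 muscle fiber markers, 2 were lower and 1 was higher, and their sum, 108800 to 183300 CPM in summer and 117300 to 151600 CPM in winter, was lower in 4 of 6 bears.

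On the cytoplasmic side, 1 of the 4 genes for talin, vinculin and kindlin was called, beside 40.8% of all genes tested. Talin unfolds under tension and recruits vinculin, and kindlin helps talin to activate the receptor. TLN2, the talin most typical of striated muscle, was at 111 to 200.0 CPM in summer (median 172) and 80.5 to 141 CPM in winter (median 104). It was lower in 6 of 6 bears with some overlap of the seasons, and the log2 fold change was −0.63 (SE 0.11, adjusted p = 0.00165). TLN1, the widely expressed talin, was at 87.0 to 147 CPM in summer (median 117) and 70.1 to 118 CPM in winter (median 93.5), and its log2 fold change of −0.30 (SE 0.16, adjusted p = 0.171) was not called. VCL, vinculin, was at 102 to 155 CPM in summer (median 127) and 97.2 to 140 CPM in winter (median 114), at −0.14 (SE 0.10, adjusted p = 0.275). FERMT2, kindlin-2, was at 127 to 168 CPM in summer (median 155) and 157 to 187 CPM in winter (median 175). It was higher in 6 of 6 bears but by only 0.01 to 0.51 on the log2 scale (log2 fold change 0.21, SE 0.11, adjusted p = 0.138), and of the alternatives it was called in DESeq2 without the bear as a term (0.0312), the highest value being 0.461.

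ILK, PINCH and parvin form a stable complex of 1 subunit each that connects the beta chain to actin. Each of the 5 genes followed here for this complex was called, beside 40.8% of all genes tested. For LIMS2, a PINCH gene, the call was lost in 7 of 14 alternatives. ILK, the pseudokinase at the center of the complex, was at 51.8 to 68.3 CPM in summer (median 63.3) and 23.3 to 40.8 CPM in winter (median 28.4). No winter library reached the lowest summer library, single bears lay from −1.36 to −0.66, and the log2 fold change was −1.05 (SE 0.11, adjusted p = 8.38e-05). PARVA, alpha-parvin, fell from 40.3 to 50.8 CPM (median 44.7) to 22.3 to 34.7 CPM (median 27.4), again without overlap, by 0.70 on the log2 scale (SE 0.11, adjusted p = 0.00074). PARVB, beta-parvin, the form abundant in heart and skeletal muscle, fell from 43.9 to 73.5 CPM (median 62.2) to 33.5 to 52.0 CPM (median 39.8), by 0.54 (SE 0.13, adjusted p = 0.00736).

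The genes for the PINCH subunit were called in opposite directions. LIMS1, PINCH-1, was at 33.2 to 43.5 CPM in summer (median 40.7) and 46.7 to 81.5 CPM in winter (median 72.8). Every winter library was above every summer library, with bear 1511 the lowest in winter, and the log2 fold change was 0.79 (SE 0.13, adjusted p = 0.00111). LIMS2, PINCH-2, was at 10.3 to 17.5 CPM in summer (median 16.3) and 6.40 to 15.1 CPM in winter (median 11.8), lower in 6 of 6 bears at −0.46 (SE 0.16, adjusted p = 0.045). That call was lost without the bear as a term (adjusted p = 0.100) and without bear 1305 (0.0805), 1316 (0.105), 1509 (0.0866, log2 fold change −0.28), 1511 (0.059) or 1512 (0.0654), in a range of 0.0155 to 0.105.

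Signaling proteins and actin-side proteins differed among themselves. PXN, paxillin, the scaffold on which kinases and adaptors meet at adhesions, was at 99.9 to 157 CPM in summer (median 115) and 135 to 233 CPM in winter (median 203). It rose in 6 of 6 bears, with overlap because bear 1316 was high in summer and bear 1509 low in winter (log2 fold change 0.68, SE 0.12, adjusted p = 0.00166). PTK2, focal adhesion kinase, was at 70.7 to 85.4 CPM in summer (median 77.4) and 62.8 to 71.6 CPM in winter (median 66.5). The decrease was small in each of the 6 bears, from −0.34 to −0.06, and the log2 fold change of −0.21 (SE 0.09, adjusted p = 0.0857) was called only without the bear as a term, in edgeR (0.0421) and in DESeq2 (0.0141), with 0.183 as the highest value. BCAR1, the p130Cas scaffold that is phosphorylated on stretching, was at 4.46 to 8.38 CPM in summer and 3.37 to 6.56 CPM in winter (log2 fold change −0.26, SE 0.17, adjusted p = 0.258).

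TNS1, tensin-1, which binds both the beta chain tail and actin, had the largest rise of the 37 genes. It was at 227 to 327 CPM in summer (median 264) and 339 to 624 CPM in winter (median 539). The seasons did not overlap, but the winter library of bear 1509 lay far below those of the other bears, at 462 to 624 CPM, and its increase was only 0.10 on the log2 scale against 0.66 to 1.31 in the others. The log2 fold change was 0.91 (SE 0.16, adjusted p = 0.00145). ZYX, zyxin, a LIM protein that moves from adhesions to strained actin fibers, fell from 18.9 to 29.9 CPM (median 27.1) to 8.66 to 22.3 CPM (median 15.5). Single bears ranged from −1.68 in bear 1509 to −0.09 in bear 1511, and the log2 fold change was −0.73 (SE 0.19, adjusted p = 0.0102).

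Whether related genes changed differently was asked for 6 pairs, by the difference of their winter minus summer changes in log2 CPM within each bear and a two-sided exact permutation test over the signs of the 6 bears. With 6 bears this test cannot give a p below 0.0312, so the 3 pairs that reached it had an adjusted p of 0.0625 and did not pass the threshold. LIMS1 exceeded LIMS2 by 1.25 ± 0.50 (SD, n = 6 bears) and did so in 6 of 6 bears (exact p = 0.0312). The change of ITGA5 was below that of ITGA7 by a mean difference of −0.90 ± 0.44 in 6 of 6 bears (exact p = 0.0312), with bear 1509 closest to 0 at −0.11. ITGA10 exceeded ITGA11 by 2.71 ± 1.27 in 6 of 6 bears (exact p = 0.0312), from 1.84 to 5.26. The difference of TLN1 and TLN2 was 0.33 ± 0.46, positive in 5 of 6 bears (exact p = 0.156, adjusted p = 0.234), and a difference between the talins was not shown. For PARVA and PARVB it was −0.17 ± 0.52 (exact p = 0.531) and for ITGA6 and ITGA7 −0.22 ± 0.64 (exact p = 0.469), each with bears on both sides of 0.

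**Figure D3:**
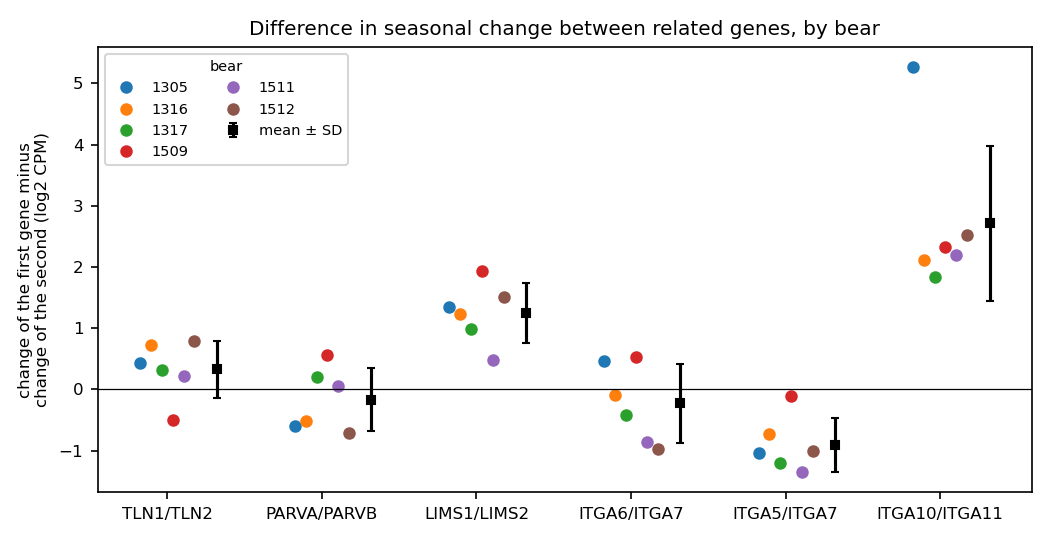
Winter minus summer change in log2 CPM of the first gene minus that of the second (y axis) for 6 pairs of related genes, with 1 colored point per bear and the mean ± SD as a black square. All 6 bears lie on 1 side of 0 for LIMS1/LIMS2, ITGA5/ITGA7 and ITGA10/ITGA11, where bear 1305 stands apart at 5.26.

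The neighbors of these genes were taken from 3 lists. Of 33 symbols listed for integrin ligands, matrix proteins and cell-surface partners, 31 were tested, with a median log2 fold change of −1.61. In edgeR 22 were lower and 0 higher (0 at an unadjusted p below 0.05, 0 in DESeq2 and 0 in limma voom, and 1 without bear 1509). The share called lower was 71.0%, where it was 21.2% of all genes. The lowest adjusted p values belonged to the basement membrane collagen chains COL4A1, at −3.01 (SE 0.15, adjusted p = 5.47e-06), and COL4A2, at −2.16 (SE 0.13, adjusted p = 5.47e-06), and to the microfibrillar collagen chain COL6A2, at −2.63 (SE 0.15, adjusted p = 5.47e-06). For COL4A1 the summer libraries lay at 459 to 1066 CPM and the winter libraries at 60.0 to 183 CPM.

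Of 53 symbols listed for other adaptors, kinases and regulators of integrin adhesions, 48 were tested, with 19 lower, 7 higher and a median of −0.20. The shares were 39.6% lower and 14.6% higher, beside 21.2% and 19.6% of all genes. NEDD9, a relative of BCAR1, was at −1.26 (SE 0.15, adjusted p = 0.00016), CIB1, a calcium-binding partner of integrin tails, at −1.46 (SE 0.18, adjusted p = 0.000165), and the tyrosine kinase SRC at −1.28 (SE 0.18, adjusted p = 0.000359), each lower in 6 of 6 bears without overlap of the seasons. CAV3, the muscle caveolin, rose by 0.79 (SE 0.17, adjusted p = 0.00414), and LPP, a relative of zyxin, by 0.52 (SE 0.13, adjusted p = 0.00706). The number higher was 4 with library totals.

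Of 42 other proteins that link the sarcomere or cytoskeleton to the membrane, 38 were tested, with 11 lower, 7 higher and a median of −0.14. These were 28.9% and 18.4% of the list, beside 21.2% and 19.6% of all genes. PDLIM3, a Z-disc protein that binds alpha-actinin, rose by 1.62 on the log2 scale (SE 0.17, adjusted p = 7.49e-05), and NRAP, which sits at myotendinous junctions and binds talin and vinculin, rose 2.835-fold (SE of the log2 fold change 0.21, adjusted p = 0.000332). NRAP was at 1853 to 4333 CPM in summer and 6808 to 8803 CPM in winter. SGCA, alpha-sarcoglycan of the dystrophin complex, rose by 1.10 (SE 0.26, adjusted p = 0.00601) in 5 of 6 bears. SPTAN1, a spectrin of the membrane skeleton, was at −0.85 (SE 0.12, adjusted p = 0.00034), ITGB1BP2, melusin, a muscle protein that binds the ITGB1 tail, at −0.83 (SE 0.13, adjusted p = 0.000762), and SVIL, supervillin, at −0.53 (SE 0.12, adjusted p = 0.00447), each lower in 6 of 6 bears. The number higher in this list was 4 with library totals, 3 without bear 1305 and 3 without bear 1512.

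**Figure D4:**
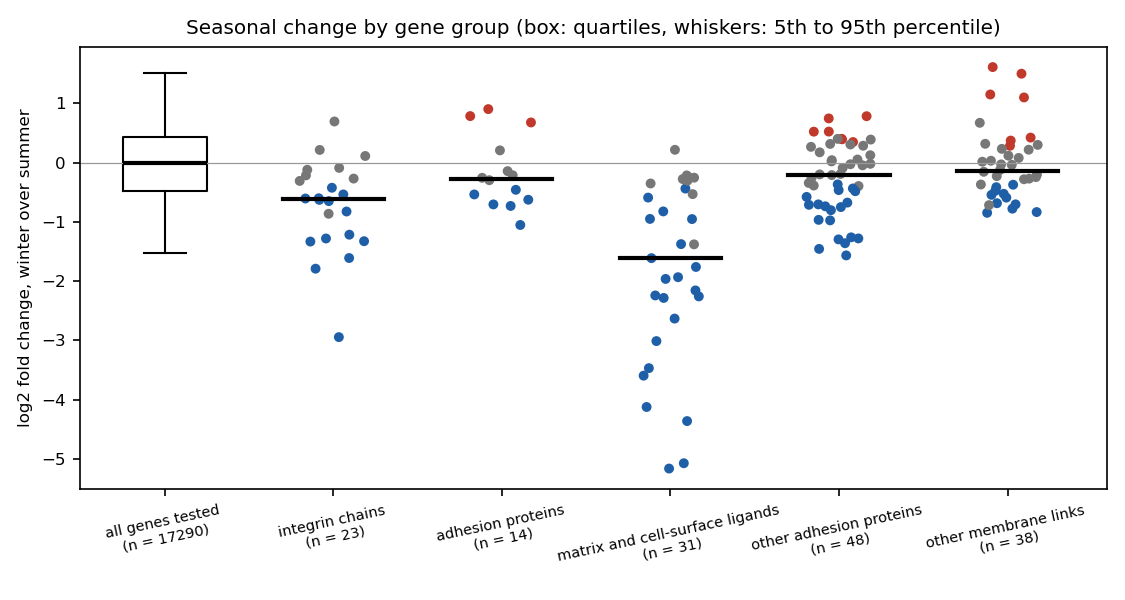
Log2 fold change of winter over summer (y axis) for all 17290 genes tested (box with quartiles, whiskers at the 5th and 95th percentile) and for each gene of the integrin chains, the adhesion proteins and the 3 lists of neighbors, colored red for higher, blue for lower and grey for not called at an adjusted p below 0.05. Black bars are medians, at −0.01 for all genes tested and, for the other groups, from −0.14 for the other membrane links to −1.61 for the ligands.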

How the data were processed

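Muscle libraries of 6 bears in 2 seasons were analysed, 12 in all, and none was left out. The deposited values are read counts per gene, whole numbers not normalized by the authors, who aligned stranded single-end reads to ASM358476v1 with TopHat and counted them on the opposite strand with featureCounts 1.6.2. How reads with several alignments were counted is not given in the sources used here, so counts of near-identical genes are uncertain. Genes with at least 30 reads over the 12 libraries were kept. In R 4.3.3, edgeR 4.0.16 (TMM, estimateDisp, glmQLFit, glmQLFTest) was fitted on all of them with bear and season as terms. The seasons are paired because the same animals were sampled in both, by the titles and the methods of the study. After each season's mean was removed, winter and summer libraries that shared a bear correlated at r = 0.0903 to 0.344 over genes (median 0.237). Those of different bears correlated at r = −0.214 to 0.142 (median −0.0634), so the ranges overlapped. For 5 of the 6 bears the own winter library correlated best with the summer library. Log2 CPM used a prior count of 2. Alternatives were the fit without the bear as a replicate block, DESeq2 1.42.0, limma voom (limma 3.58.1), other normalizations and filters, stricter limits and each bear left out. The fits were tested on simulated data. The genes and lists, and the named genes (every gene of the rule, and the 3 with the lowest adjusted p in each direction of each list), were chosen with earlier results of these data known, and 1 of the named genes is not reported here. No library was a copy of another of its season (lowest chi-square per degree of freedom 30.2, where counting noise gives 1). Lanes are not assigned in the labels, so a lane effect was not tested. RefSeq entries on another assembly (UrsArc2.0) matched 35 of the 37 symbols, and no coordinates or sequences are given.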

Additional observations from a re-analysis of the deposited data

Results flagged for a closer look

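In 104 groups of 6 libraries (1 gene in 1 season), 6 had a library set apart from the others by more than Dixon's 95% limit, where chance gives about 1 in 20. Values are log2 CPM. In winter, bear 1509 was low for ITGA7 at 6.05 (the others 6.67 to 6.96) and for ITGB4 at 1.01 (2.29 to 3.02), and high for ITGB8 at −1.46 (−2.80 to −2.44), a value that rests on 5 reads. In summer it was high for ITGB7 at 3.68 (2.90 to 3.10). ITGA10 was high in the winter library of bear 1511 at 3.31 (1.66 to 2.14), and LIMS2 low in the summer library of bear 1512 at 3.37 (3.90 to 4.14).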

How the results depend on the processing

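Without the bear as a replicate block, 20 of the 37 genes were lower and 4 higher, against 20 and 3 with it. It changed the calls of ITGA7, ITGA9, ITGAL, LIMS2 and PTK2, as given above, and of no other of the 37. The number higher was 5 in DESeq2 without the replicate block. Leaving out 1 bear gave 17 to 19 lower and 3 to 4 higher. Over all genes, 3392 were higher and 3663 lower. With the stricter limits the counts were 2115 and 2325, and with 1 bear left out 2619 to 3542 and 3001 to 3677. Library totals gave 4 higher in the list of other adhesion proteins and 4 in that of other membrane links, which gave 3 with the stricter limits and 3 to 9 with 1 bear left out. Integrin ligands gave 0 to 1 higher with 1 bear left out. Of the genes that were not called, only ITGAM, ITGB4 and ITGB8 changed sign. ITGAM ran from −0.27 to 0.061 as single bears were left out, at 0.024 when it was 1509 and at 0.061 when it was 1512. ITGB4 ran from −0.015, without bear 1317, to 0.46. ITGB8 was at −0.036 without the replicate block and −0.028 in DESeq2 without it. The cause was not tested. The pair differences kept their sign throughout. With 6 bears their test is limited by its smallest p, and low counts (ITGA2, ITGAL, ITGB8) limit the precision of single genes.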
